A study of Mus musculus with 6 samples.

Results

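The microRNAs (miRNAs) miR-103 and miR-107 were followed in small RNA sequencing of mouse pancreatic islets, the endocrine cell clusters of that organ, which release insulin and other hormones. The islets came from mice on the diet labelled HFD (3 libraries) or the diet labelled NCD (3 libraries). The study concerns a miRNA carried from visceral fat cells to islets in glucose intolerance. The sources used here state neither strain, sex or age, nor how long the mice were fed or whether animals were pooled, so the spread between libraries may be technical in part, and all p-values refer to that spread. The members were the arms of the 3 hairpins mir-103-1, mir-103-2 and mir-107, taken by name, which gives 5 mature miRNAs. Of the 1011 miRNAs listed, 3 were members: mmu-miR-103-3p (16362 reads over all libraries), mmu-miR-107-3p (759 reads) and mmu-miR-103-2-5p (3 reads). The remaining 2, mmu-miR-103-1-5p and mmu-miR-107-5p, were not analysed here. Both 3p arms passed the filter on low counts and the 5p arm did not.

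A mature miRNA guides the silencing complex to messenger RNAs that pair with its seed, the bases near its 5′ end. miR-103 and miR-107 are known as regulators of insulin sensitivity: both are raised in liver and fat of obese mice, and one of their targets there is caveolin-1, a membrane protein that stabilises the insulin receptor. Their hairpins lie in introns of the pantothenate kinase genes, whose enzymes start the synthesis of coenzyme A.

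The mature sequences are shown to make plain how little separates the members; capitals mark the seed, bases 2 to 8.
miR-103-3p: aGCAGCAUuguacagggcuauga
miR-107-3p: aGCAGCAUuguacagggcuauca
miR-103-2-5p: aGCUUCUUuacagugcugccuug
Both 3p arms share the seed, and no other listed miRNA had it. They differ by 1 base, G22C, counted from the 5′ end of the 23 bases of miR-103-3p. A read that ends before base 22 fits both names, and the sources used here do not state under which name it was counted. The sum of both rows is therefore given beside each. Of the listed miRNAs, 0 were reverse complements of a member over 18 bases or more.

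The hairpins are printed with the 3p arm in capitals, to show that identical 3p arms come from different loci.
Mir103-1: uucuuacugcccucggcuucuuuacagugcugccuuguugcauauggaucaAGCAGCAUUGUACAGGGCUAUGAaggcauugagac
Mir103-2: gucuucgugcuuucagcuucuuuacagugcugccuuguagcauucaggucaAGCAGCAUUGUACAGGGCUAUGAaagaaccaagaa
Mir107: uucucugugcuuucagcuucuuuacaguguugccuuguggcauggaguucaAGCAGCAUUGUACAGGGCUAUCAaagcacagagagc
These are RefSeq sequences on GRCm38.p6, and the miR-103-3p, miR-107-3p and miR-103-2-5p sequences in the deposited table were the same as theirs. Mir103-1 lies at chr11:35782396-35782481 on the plus strand, within Pank3. Mir103-2 lies at chr2:131288052-131288137 on the plus strand, within Pank2. Mir107 lies at chr19:34820687-34820773 on the minus strand, within Pank1. In the GENCODE annotation of GRCm38 each hairpin lies on the strand of its host gene and overlaps 0 of the host's exons, so each is intronic. Reads of miR-103-3p cannot be assigned to Pank3 or Pank2. The 5p arms differ too: miR-103-1-5p and miR-103-2-5p by G1A, and miR-103-2-5p and miR-107-5p by C16U.

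Library totals ran from 9431818 to 11059628 counts in HFD and from 7166712 to 11172255 in NCD. Levels are CPM, counts per 1000000 counts of the library, on totals scaled by TMM factors, which correct for a few abundant miRNAs that fill a library. These factors were 0.84 to 0.995 in 5 libraries and 1.73 in NCD 3, which therefore stands apart. The islet endocrine markers, 7 miRNAs led by miR-375-3p, summed to 511884 to 596489 CPM in the HFD libraries and to 290835 to 643764 CPM in NCD libraries, with NCD 3 lowest. The factor of 1.73 lowers every CPM value of NCD 3, so its place below every HFD library depends on the scaling. By share of reads it was still the lowest of the NCD libraries, by a smaller margin. All 7 were found in each library. miRNAs enriched in other cells were present: the 6 acinar miRNAs summed to 20.2 to 206 CPM in the HFD libraries and 112 to 418 CPM in NCD, lowest in HFD 1 and highest in NCD 3. The 4 liver and muscle miRNAs summed to 48.3 to 130 CPM in the HFD libraries and 127 to 885 CPM in NCD, highest in NCD 1. Each of these 3 lists had counts for all of its members in at least 1 library.

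miR-103-3p was the abundant member, and it did not pass the test between diets. It was covered by 1771, 2010 and 3875 reads in HFD libraries 1, 2 and 3, against 2138, 2837 and 3731 reads in NCD libraries 1, 2 and 3. Its level was 197, 254 and 352 CPM in the HFD libraries, against 317, 291 and 265 CPM in the NCD libraries. The NCD values all lay within the HFD range, so the diets overlapped completely. The mean was 268 ± 78.5 CPM in the HFD libraries and 291 ± 26.0 CPM in the NCD libraries (SD, n = 3 per diet). The log2 fold change, HFD over NCD, was -0.12 ± 0.31 (SE), with a 95% interval of -0.80 to 0.56 (edgeR quasi-likelihood test, adjusted p = 0.933). As a fold, that interval runs from 0.574 to 1.48, and changes inside it cannot be told from none with 3 libraries per diet. The sign rested on HFD 1, which had the lowest level: without it the log2 fold change was 0.029, and without HFD 3, the highest library, it was -0.42. On scaled totals the markers of other cells did not follow miR-103-3p in 1 direction. The acinar sum was lowest in HFD 1, at 20.2 CPM, and highest in NCD 3, at 418 CPM, the lowest library of each diet for miR-103-3p. The endothelial, liver and muscle, leukocyte and stromal sums were lowest in HFD 3, where miR-103-3p was highest. This order depends on the scaling: on raw totals NCD 3 was the highest library for miR-103-3p, at 459 CPM. Their part in the value of miR-103-3p was not tested. In whole islets, fewer cells of a type and less RNA per cell cannot be told apart.

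miR-107-3p, from the Pank1 intron, was much scarcer. It had 99, 120 and 182 reads in HFD libraries 1, 2 and 3, against 71, 86 and 201 reads in NCD libraries 1, 2 and 3. Its level was 11.02, 15.1 and 16.5 CPM in the HFD libraries, against 10.5, 8.81 and 14.3 CPM in the NCD libraries. HFD 2 and HFD 3 lay above every NCD library, while HFD 1 lay below NCD 3, so the diets overlapped. The mean was 14.2 ± 2.87 CPM in the HFD libraries and 11.2 ± 2.80 CPM in the NCD libraries (SD, n = 3 per diet). The log2 fold change was 0.34 ± 0.39 (SE), with a 95% interval of -0.50 to 1.19 (edgeR quasi-likelihood test, adjusted p = 0.748). The matching fold interval runs from 0.705 to 2.28, wider than that of miR-103-3p. With 1 library left out the log2 fold change ran from 0.18, without HFD 3 or without NCD 2, to 0.54 without NCD 3.

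**Figure D1:**
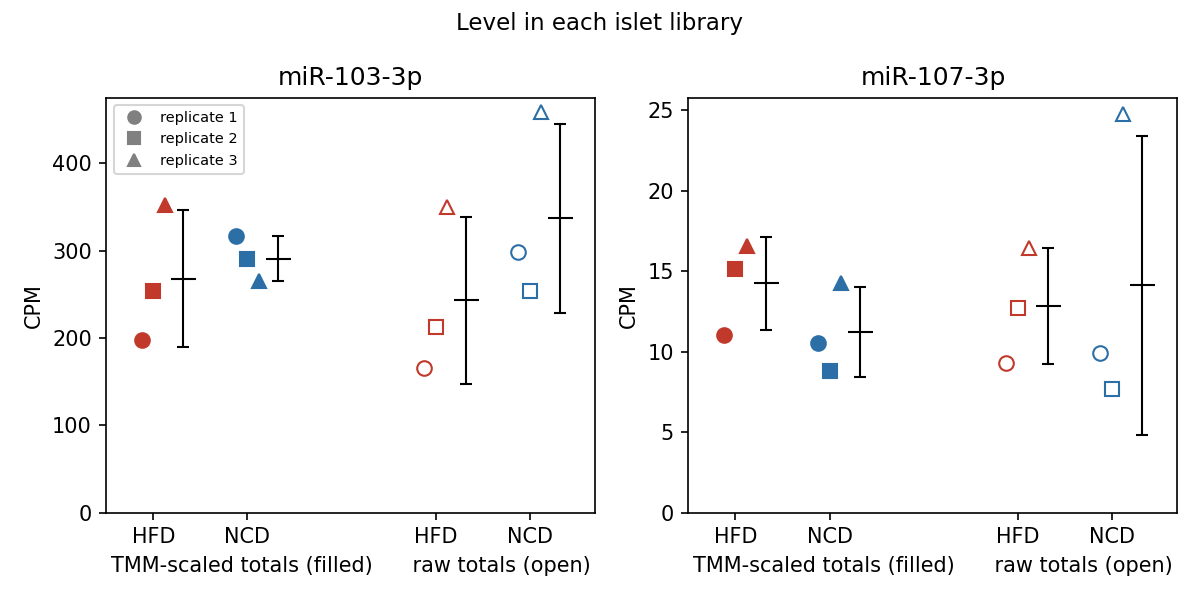
Level of miR-103-3p (left panel) and miR-107-3p (right panel) in CPM for each library, with HFD left of NCD; filled symbols use totals scaled by TMM factors and open symbols raw library totals. Bars are the mean ± SD of 3 libraries; on raw totals NCD 3 is the highest library for both miRNAs, at 459 and 24.7 CPM, and on scaled totals it is not.

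The scaling mattered for both. On raw library totals miR-103-3p had 166, 213 and 350 CPM in the HFD libraries, against 298, 254 and 459 CPM in the NCD libraries. miR-107-3p had 9.27, 12.7 and 16.5 CPM in the HFD libraries, against 9.91, 7.70 and 24.7 CPM in the NCD libraries. NCD 3 was then the highest of the 6 for both. Scaled by library totals alone, log2 fold changes were -0.47 for miR-103-3p and -0.14 for miR-107-3p, and that of miR-107-3p changed sign (edgeR adjusted p = 0.737 and 0.947). That scaling moved the median of all 406 tested miRNAs to -0.37, against 0.030 with TMM factors. Relative to that median, miR-103-3p was at -0.10 with library totals and -0.15 with TMM factors, and miR-107-3p at 0.23 and 0.31.

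Across all 406 tested miRNAs 0.246% were called at an adjusted p under 0.05, which is 1 miRNA, miR-146a-5p; among the members 0 of the 2 tested were called. DESeq2 called 3 miRNAs, also with 0 members among them. At an unadjusted p under 0.05 edgeR counted 34 miRNAs, or 8.37%, and again 0 members. The diets did not overlap for 15.3% of the tested miRNAs and overlapped for both members. By the size of the log2 fold change, 13.8% of the tested miRNAs lay closer to 0 than miR-103-3p and 43.6% lay closer than miR-107-3p. The marker lists of other cells also held 0 calls. Log2 fold changes were negative for all tested acinar (3), endothelial (2), liver and muscle (3), leukocyte (3) and erythroid (2) miRNAs and for 3 of 4 stromal ones, against 198 of the 406 miRNAs tested. The list medians were -0.84, -0.70, -2.61, -0.93, -0.21 and -0.23 in that order. Single libraries carried part of this: the acinar median was -0.38 without HFD 1 and -0.15 without NCD 3, and that of liver and muscle was -0.83 without NCD 1. The endothelial median was -1.14 without HFD 2 and -0.43 without NCD 1. For the leukocyte list the median ran from -1.31 without HFD 1 to -0.64 without HFD 3, and 1 of the 3 was positive without NCD 1. Leaving out 1 library at a time moved the erythroid median between -1.09 (HFD 2 left out) and 0.084 (HFD 1 left out), and the stromal median between -0.47 (HFD 2 left out) and 0.17 (HFD 3 left out), so the sign of both rests on single libraries. The islet endocrine list also held 0 calls, with 6 of 7 log2 fold changes positive and a median of 0.28. With 1 library left out that median ran from 0.085 without NCD 3 to 0.45 without NCD 2. With library totals only, 3 were positive and the median was -0.037.

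The sum of both 3p rows does not depend on the name a shared read was given, if each read was counted once. Whether each was counted once is not stated in the sources used here. The sum was 208, 269 and 369 CPM in the HFD libraries, against 328, 300 and 279 CPM in the NCD libraries. Its mean was 282 ± 81.1 CPM in the HFD libraries and 302 ± 24.2 CPM in the NCD libraries (SD, n = 3 per diet). The log2 fold change was -0.10 ± 0.31 (SE), with a 95% interval of -0.78 to 0.58 and an edgeR adjusted p of 0.934. Without HFD 1 it was 0.049. The sum follows miR-103-3p, which made up most of it in each library.

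The balance between the members needs no scaling factor, since both are counted in the same library. miR-107-3p took 5.29%, 5.63% and 4.49% of the reads of both 3p rows in HFD libraries 1, 2 and 3, against 3.21%, 2.94% and 5.11% in NCD libraries 1, 2 and 3. NCD 1 and NCD 2 lay below every HFD library, and NCD 3 lay among the HFD libraries. The 95% Wilson intervals of NCD 1 (2.56% to 4.03%) and NCD 2 (2.39% to 3.62%) did not reach those of HFD 1 (4.37% to 6.40%) and HFD 2 (4.73% to 6.70%), and that of NCD 3 was 4.47% to 5.85%. The HFD 3 interval of 3.89% to 5.17% overlapped that of NCD 1. All these intervals describe counting error alone: without molecular identifiers, reads are not independent molecules.

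The mean share of miR-107-3p was 5.14% ± 0.590 across HFD and 3.76% ± 1.18 across NCD libraries (SD, n = 3 per diet). There were 17.9, 16.8 and 21.3 miR-103-3p reads per miR-107-3p read in the HFD libraries, against 30.1, 33.0 and 18.6 in the NCD libraries. The mean log2 ratio of miR-103-3p to miR-107-3p was 4.21 ± 0.18 across HFD and 4.72 ± 0.44 across NCD libraries. The difference of -0.51, HFD minus NCD, had p = 0.2 (exact permutation test, two-sided; the smallest p that 3 libraries against 3 can give is 0.1) and p = 0.6 after adjustment over the 3 ratios tested. It was negative with each library left out, from -0.76 (without NCD 3) to -0.35 (without NCD 2). The log2 fold changes of the 2 miRNAs had opposite signs, and the difference between them did not pass this test.

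**Figure D2:**
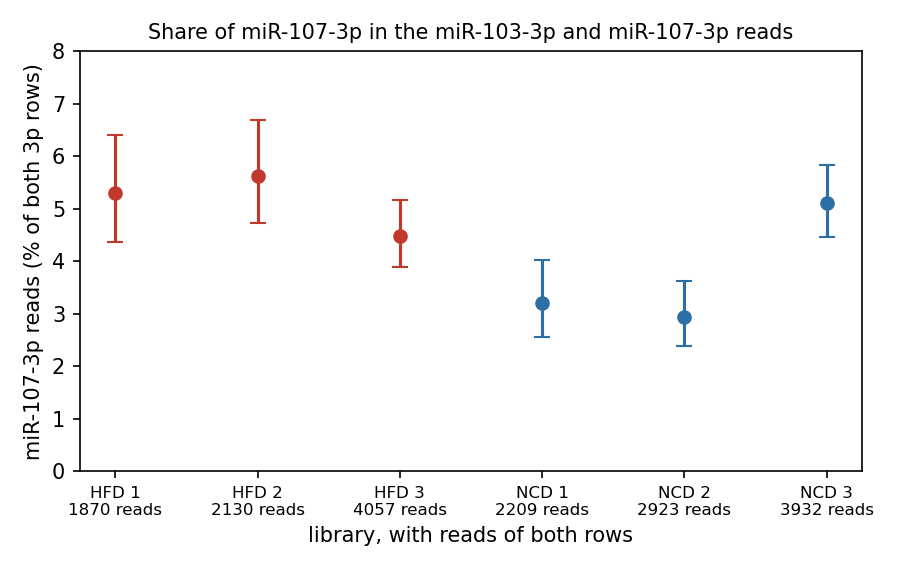
Share of miR-107-3p, in percent of the reads of miR-103-3p and miR-107-3p together, for each library with its 95% Wilson interval; HFD libraries stand left of NCD libraries, with the reads of both rows under each name. NCD 1 and NCD 2, at 3.21% and 2.94%, are lower than the other 4 libraries, which lie between 4.49% and 5.63%.

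The 5p arm, usually the strand that is discarded, was almost undetected. miR-103-2-5p had 0 reads in each HFD library, and 0, 3 and 0 reads in NCD libraries 1, 2 and 3. In NCD 2 that was 0.106% of the reads of miR-103-3p and miR-103-2-5p together, with a 95% exact binomial interval of 0.0218% to 0.308%. Since miR-103-3p also comes from Mir103-1, this is not the arm share of 1 hairpin. By the same interval the counts of 0 allow a share of up to 0.208%, 0.183% and 0.0952% in HFD libraries 1, 2 and 3. In NCD 1 and NCD 3 the limits were 0.172% and 0.0988%. A difference between diets was not detectable at this depth. The log2 ratio of the 5p row to both 3p rows differed by -0.72, HFD minus NCD (two-sided exact permutation test, p = 0.8 and 0.8 after adjustment), and it rests on the prior count of 0.5 in the 5 libraries without a read.

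Among the 1011 listed miRNAs miR-103-3p ranked 66 by its mean of 279 CPM over the 6 libraries, and its rank within a library ran from 58 in HFD 3 to 81 in HFD 1. The next above it were miR-30a-3p at 299.7 and miR-381-3p at 290.0 CPM, and the next below were miR-340-3p at 271 and miR-30e-5p at 269 CPM. These 4 means lie within the spread of miR-103-3p between libraries, so that its place among them is not settled. miR-107-3p ranked 218 by its mean of 12.7 CPM, and within a library from 203 to 239. miR-96-5p at 13.1 and miR-206-3p at 13.0 CPM stood above it, and miR-672-5p and miR-92b-3p, both at 12.6 CPM, below it, again within its spread. The miR-206-3p mean rests on NCD 1, with 59.3 CPM. Library preparation by ligation favours some miRNA ends, which limits comparisons of level between miRNAs that differ in sequence.

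The miRNAs whose profile over the 6 libraries was most like that of each member were found by the root mean square difference of log2 CPM values centred on their own mean, among tested miRNAs with a mean of at least 10 CPM. For miR-103-3p these were miR-30d-5p, with a difference of 0.16 on the log2 scale, miR-3535 with 0.17 and miR-191-5p with 0.17, where the median over all candidates was 0.50. miR-30d-5p, an abundant miRNA of the miR-30 family, had 8471 ± 1308 CPM in the HFD libraries and 8777 ± 452 CPM in the NCD libraries (SD, n = 3 per diet), with HFD 1 lowest as for miR-103-3p. For miR-107-3p they were miR-381-3p and miR-484, with a difference of 0.18 each, and miR-134-5p with 0.19, where the median was 0.52. miR-484 had 17.5, 21.7 and 23.8 CPM in the HFD libraries, against 13.2, 13.0 and 15.4 CPM in the NCD libraries. The diets did not overlap for miR-484, and its log2 fold change of 0.60 ± 0.35 (SE) did not pass (edgeR adjusted p = 0.605). The profiles of miR-103-3p and miR-107-3p differed by 0.37, which put miR-107-3p at place 41 of 238 candidates in the order of likeness to miR-103-3p. All these profiles share the same 6 libraries and scaling factors.

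The miR-15/16 seed family shares part of its 5′ end with miR-103-3p, and its members are known as brakes on the cell cycle. It is printed for 3 members to show the offset between the families, with bases 2 to 8 in capitals.
miR-103-3p: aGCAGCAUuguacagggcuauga
miR-16-5p: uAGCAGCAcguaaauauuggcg
miR-195a-5p: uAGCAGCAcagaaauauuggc
miR-15b-5p: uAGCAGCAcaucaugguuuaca
For each of the 6 miRNAs in this list, the longest run shared with miR-103-3p was 7 bases: bases 2 to 8, the seed of the miR-15/16 family, equal bases 1 to 7 of miR-103-3p. The families thus share a stretch at their 5′ ends, shifted by 1 base. Of the 6, 4 passed the filter, 0 were called, and 3 had a positive log2 fold change (2 with RLE or upper quartile factors, 0 with library totals only). The median was 0.11, against 0.030 over all tested miRNAs. Without NCD 1 the median was -0.041 with 1 of 4 positive, and with another library left out it ran from 0.0019 without HFD 3 to 0.37 without NCD 2.

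miR-16-5p, the most abundant of them, had 177, 157 and 226 CPM in the HFD libraries, against 121, 179 and 190 CPM in the NCD libraries. Its log2 fold change was 0.19 ± 0.32 (SE, edgeR adjusted p = 0.858). miR-195a-5p had 13.5 ± 3.62 CPM in the HFD libraries and 11.3 ± 4.59 CPM in the NCD libraries, and miR-15b-5p had 4.79 ± 1.88 and 5.07 ± 0.819 CPM (SD, n = 3 per diet). miR-15a-5p had 0.946 ± 0.618 CPM in the HFD libraries and 0.992 ± 0.872 CPM in the NCD libraries. miR-322-5p and miR-497a-5p stayed at 1.21 CPM or less in each library and did not pass the filter. The diets overlapped for all 4 tested members.

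To set the families against each other without a scaling factor, the summed reads of miR-103-3p and miR-107-3p were divided by the summed reads of the 6 miR-15/16 miRNAs, a ratio chosen after the values were seen. The log2 ratio was 0.096, 0.62 and 0.56 in the HFD libraries, against 1.27, 0.58 and 0.41 in the NCD libraries. HFD 1 was lowest, NCD 1 highest, and the others lay close together. The mean was 0.43 ± 0.29 across HFD and 0.75 ± 0.45 across NCD libraries (SD, n = 3 per diet). The difference of -0.33 had p = 0.5 in the two-sided exact permutation test, and 0.75 after adjustment over the 3 ratios. Without NCD 1 it was -0.07, and without HFD 1 it was -0.16.

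A list of 29 miRNAs known from liver, fat, muscle or vessel work to act on insulin signalling was taken as the wider pathway. Of these, 26 passed the filter, 0 were called in either direction, and 12 had a positive and 14 a negative log2 fold change (3 positive with library totals only). The median was -0.05, against 0.030 over all tested miRNAs; with 1 library left out it ran from -0.15 without NCD 3 (10 positive) to 0.043 without NCD 2 (14 positive). Among all tested miRNAs 51.2% had a positive log2 fold change. The 6 most abundant were let-7f-5p, miR-26a-5p, let-7g-5p, let-7i-5p, let-7c-5p and let-7a-5p, all far above the members. let-7 miRNAs are known to repress the insulin receptor and its substrate, and miR-26a-5p is known to raise insulin sensitivity in liver. let-7i-5p had 7453 ± 1057 CPM in the HFD libraries and 5130 ± 1841 CPM in the NCD libraries (SD, n = 3 per diet), and a fold change of 0.54 ± 0.33 on the log2 scale (SE, edgeR adjusted p = 0.609). miR-26a-5p had 9191 ± 2568 CPM in the HFD libraries and 8171 ± 1201 CPM in the NCD libraries, with 0.17 ± 0.31 as log2 fold change (SE).

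The other 4 had log2 fold changes of 0.15 (let-7f-5p), 0.33 (let-7g-5p), -0.07 (let-7c-5p) and 0.12 (let-7a-5p), each smaller than its standard error. The lowest value of the list, -2.61, was that of the liver miRNA miR-122-5p, named here after its value was seen; it was 757 CPM in NCD 1 and at most 78.5 CPM in the other libraries.

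**Figure D3:**
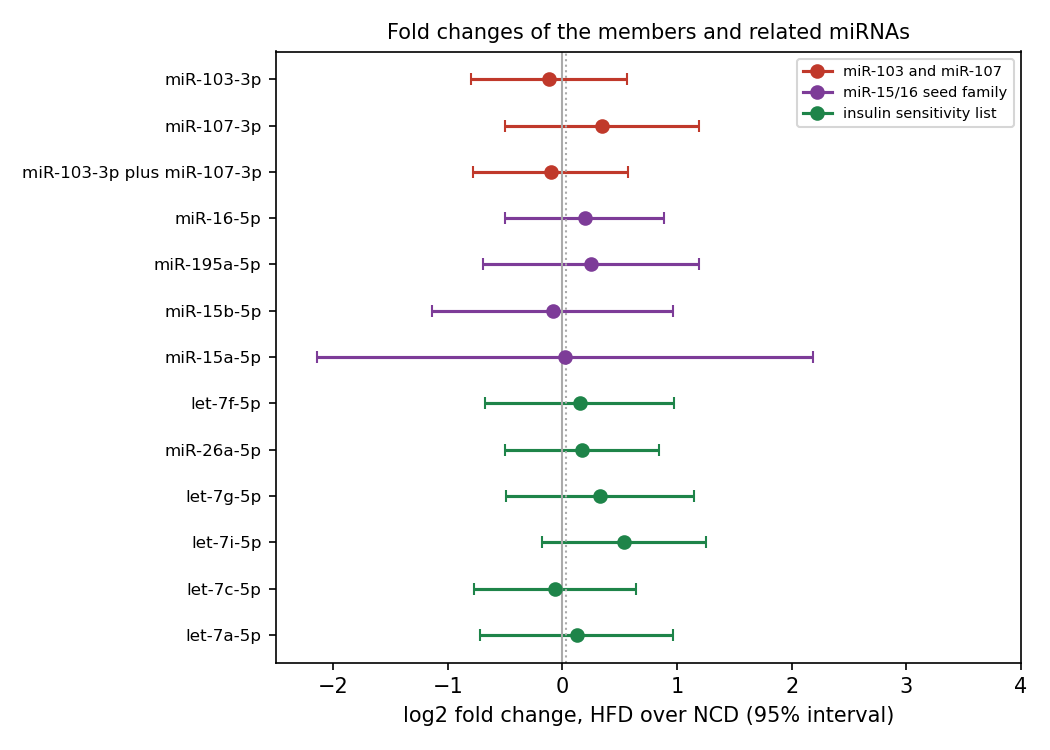
Log2 fold change, HFD over NCD, with its 95% interval for miR-103-3p, miR-107-3p and their sum, for the 4 tested miRNAs of the miR-15/16 seed family and for the 6 most abundant of the insulin sensitivity list; the solid line marks 0 and the dotted line the median of 0.030 over all tested miRNAs. The intervals of all 13 rows include 0.

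**Figure D4:**
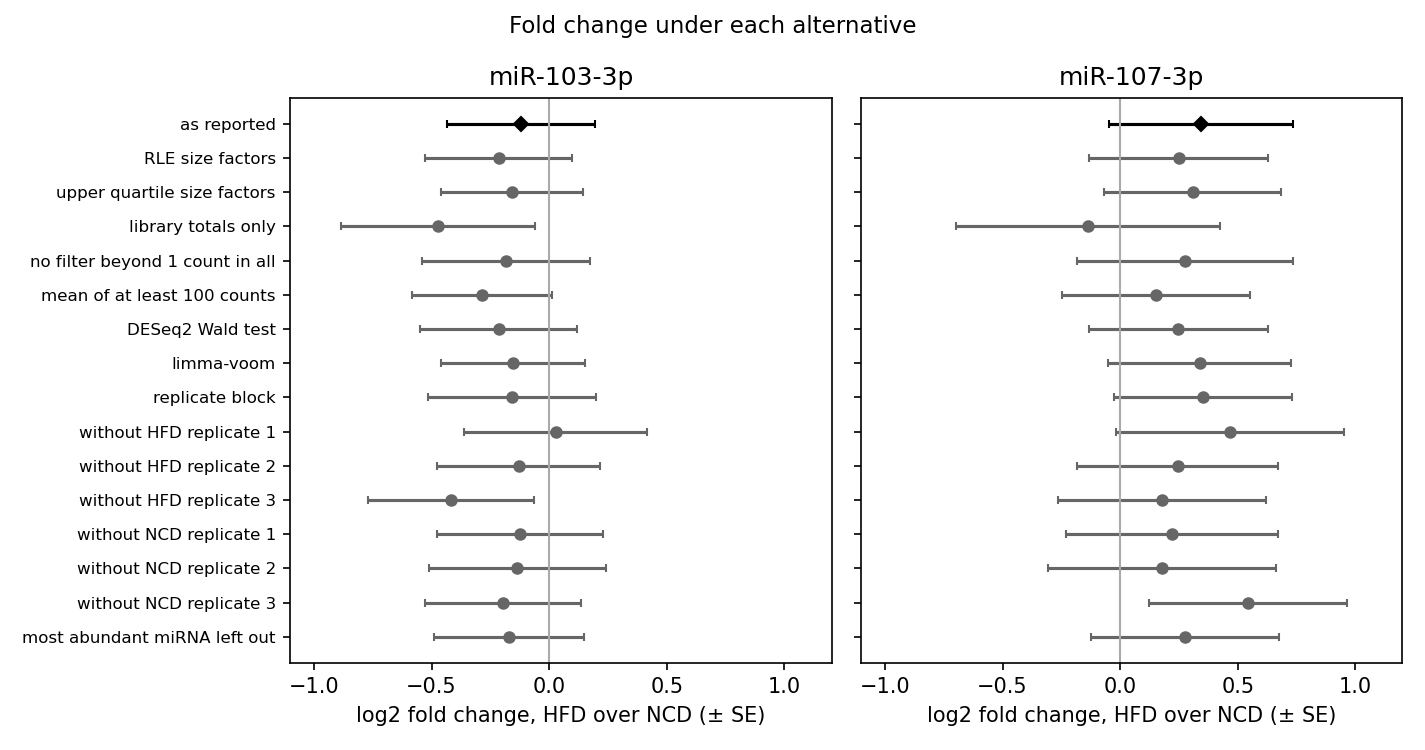
Log2 fold change, HFD over NCD, ± SE for miR-103-3p (left panel) and miR-107-3p (right panel) as reported and under each alternative. miR-103-3p was above 0 without HFD replicate 1, at 0.029, and miR-107-3p was below 0 with library totals only, at -0.14; the other values kept their sign.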

How the data were processed

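Per the file headers, the deposited values are read counts, 1 for each mature miRNA in each library; aligner, counting tool, genome build and annotation release: not given in the sources used here. Per the labels' protocols, total RNA was taken on RNeasy columns and libraries were made with a small RNA kit from NEB. Such columns can lose short RNA.

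Counts were tested with edgeR 4.0.16 (R 4.3.3): filterByExpr with a minimum count of 10, TMM factors, and the quasi-likelihood test with diet as the only term, over 406 miRNAs with Benjamini-Hochberg adjustment and a threshold of 0.05. CPM values use raw totals multiplied by the TMM factors. Rows removed by the filter, up to 0.0351% of the reads in a library, were left out of the tested totals. Ratios had a prior count of 0.5 and exact permutation tests (scipy 1.17.1). The members and lists were chosen with earlier results of these data known. The text names the members, the miR-15/16 list, the 2 neighbours by level on each side, the 3 nearest profiles and the 6 most abundant of the insulin list. Hairpins and mature sequences came from RefSeq (GRCm38.p6), matched by name for all 5 members, and host genes from GENCODE M21.

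Alternatives were other size factors, other filters, DESeq2 1.42.0, limma-voom (limma 3.58.1), a replicate block, leaving out the most abundant miRNA and each library left out. In data simulated with many changed miRNAs, the edgeR steps called 32.5% of 2-fold and 86.4% of 4-fold changes. The mean number of false calls was 3.2 per run of 406 miRNAs, counted among the unchanged ones. Recovery with few changed miRNAs was not simulated and may be lower, so these shares are not the power for the members.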

Additional observations from a re-analysis of the deposited data

How the results depend on the processing

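Neither 3p row, nor their sum, passed the threshold under any of the 15 alternatives run for each, with adjusted p from 0.737 to 0.985 for miR-103-3p, from 0.728 to 0.964 for miR-107-3p and from 0.733 to 0.985 for the sum. Over these, the log2 fold change of miR-103-3p ran from -0.47 to 0.029, that of miR-107-3p from -0.14 to 0.54 and that of the sum from -0.46 to 0.049. With 1 library left out the ranges were -0.42 to 0.029, 0.18 to 0.54 and -0.39 to 0.049, and miR-103-3p and the sum changed sign without HFD replicate 1. miR-107-3p changed sign to -0.14 with library totals only, where the median of all miRNAs was also lower. The count of called miRNAs, 1 as reported, came to 0 on library totals, 6 when no filter was used, 3 by DESeq2, and 0 to 4 with 1 library left out; the cause was not tested. The log2 ratio of miR-103-3p to miR-107-3p was negative under all 7 alternatives, from -0.76 to -0.35, and the ratio to the miR-15/16 family ran from -0.50 to -0.07. The 5p ratio ran from -1.40 to 0.22 and changed sign without NCD replicate 2, the library with the 3 reads; with a prior count of 5 it was -0.0092.

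Libraries with the same replicate number did not deviate together in each pair (correlations of 0.17, -0.24 and 0.35 across 406 miRNAs), so the numbers were not treated as pairing the libraries. With the replicate block the log2 fold change was -0.16 for miR-103-3p, 0.35 for miR-107-3p and -0.14 for the sum, with 1 called miRNA. Depth limits the 5p arm, at 3 reads in all.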
